A study of Mus musculus with 4 samples.

Results

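The comparison described here is that of NS-GFP high with NS-GFP middle cells, both c-Kit+, sorted from 1 kind of mouse acute myeloid leukaemia. Its samples are 2 of the 4 in the series, chosen by their labels, with 1 array each. The array holds 18193 genes, and 11038 of them exceeded the floor of 15.3 signal units on at least 1 of the 2 arrays and could be compared. Of these, 9717 were above the floor on both arrays, 725 on the NS-GFP high array only and 596 on the NS-GFP middle array only. A level here is the signal of a gene's brightest probe set, a group of short probes for the same transcript, after quantile normalization over the 4 arrays.

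All 4 fractions came from bone marrow on the C57BL/6 background. The leukaemia arose after HoxA9 and Meis1 were put into marrow cells of a transgenic mouse, and every fraction carries both introduced genes. It also carries the reporter NS-GFP, in which a part of the nucleostemin (NS) promoter drives green fluorescent protein, so the gate reads the activity of that part and not the nucleostemin protein. The sort used 4 gates. Cells without c-Kit were taken as NS-GFP low and NS-GFP middle, called here c-Kit- low and c-Kit- middle. Cells with c-Kit were taken as NS-GFP middle, called here the middle fraction, and NS-GFP high, called the high fraction. The number of mice or leukaemias behind each array, and their age, are not stated in the sources used here. By its title, the study derives a signature of leukaemia stem cells from the activity of this promoter. Within c-Kit+ cells the comparison asks how transcription differs between cells of higher and of intermediate reporter activity.

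Nucleostemin, encoded by Gnl3, is a GTPase of the nucleolus that is abundant in stem cells and in proliferating cells. c-Kit, on immature blood cells, is a receptor tyrosine kinase whose ligand is stem cell factor. A dividing cell copies its DNA in S phase and then builds, in G2 and mitosis, the kinases, the spindle and the kinetochores that separate the chromosomes. Many of the genes for this last step share promoter elements, are switched on late in the cycle and are silent in resting cells, so their mRNA is a common measure of the share of cells close to division. Myeloid leukaemia cells die largely through the BCL2 family, in which BH3-only proteins start the process and BCL2 and its relatives hold it back.

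With 1 array per fraction there is no replicate, and neither an error nor a test can be given. Differences are described by size, as the log2 ratio of the high fraction over the middle fraction or as a fold. The sole repeat measurement is another probe set for the same gene, which shows probe error but no difference between animals or sorts. The SD of 1 probe set was estimated from how far the log2 ratios of a gene's 2 brightest probe sets differed. It is the SD of that difference over genes, divided by the square root of 2. Over genes with at least 2 probe sets above the floor on both arrays it was 0.30. It was 0.48 in the dimmest 25% of genes by signal and 0.22 in the brightest 25%, so a given fold is better supported in bright genes. These arrays hold RNA of whole fractions, in which fewer cells of a type and less RNA per cell cannot be told apart. Of the control transcripts with probe sets at both ends, Actb, Gapdh, lys, phe and thr had a higher ratio of 3' to 5' signal on the high array, for example 4.70 against 3.98 for Actb and 28.7 against 20.7 for lys, an added bacterial transcript. The ratio of dap went the other way, with 46.1 against 59.4. The part of RNA quality or labelling in the differences below was not tested.

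The c-Kit+ fractions were close to each other. The median log2 ratio over the genes compared was 0.02 (quartiles -0.18 and 0.23), and across genes above the floor on both arrays the Pearson correlation of the log2 signals was 0.983, where genes are not independent replicates. At least 2-fold higher in the high fraction were 112 genes (1.01%), and at least 2-fold lower were 112 (1.01%). Without quantile normalization these counts were 84 and 130, and in the second deposited table, which holds fewer probe sets, they were 24 and 91. At 1.5-fold, the size used below for members of gene lists, 690 genes (6.25%) were higher and 521 (4.72%) lower. This balance turned to 600 higher and 618 lower without quantile normalization and to 281 and 501 in the second table. The ratio lay above 0 in 53.2% of genes. Most of the 2-fold differences were in dim genes, with 75 higher and 70 lower in the dimmest 25% against 2 higher and 0 lower in the brightest 25%. The 2 bright ones were Cdk1 and Prc1, both genes of cell division.

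**Figure D1:**
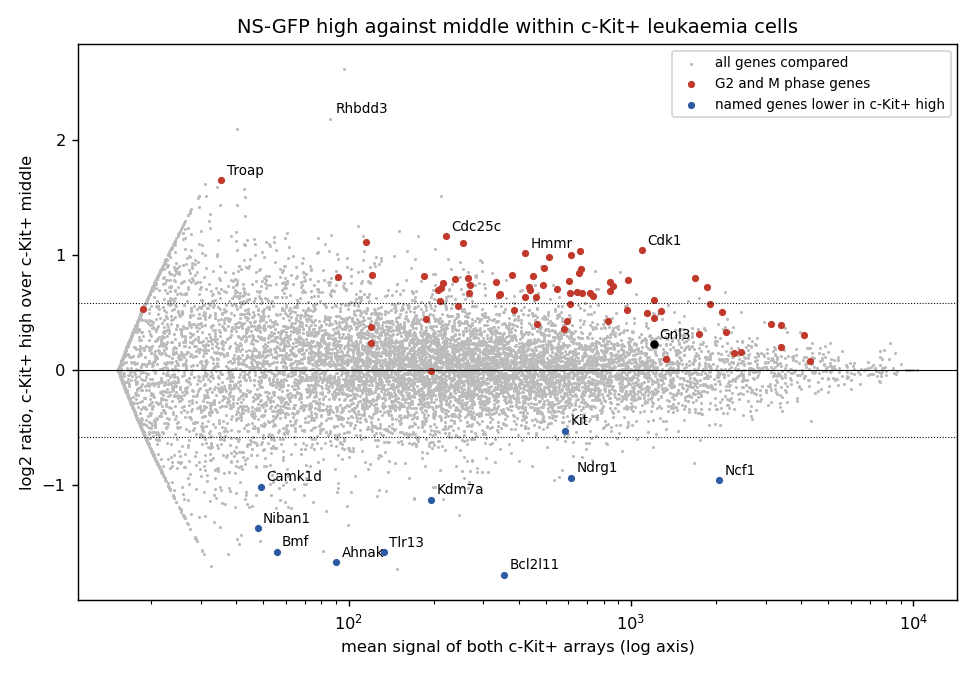
Each point is 1 gene, with its mean signal over both c-Kit+ arrays on the x axis (log scale) and its log2 ratio of the high fraction over the middle fraction on the y axis, and dotted lines at 1.5-fold. The 75 compared genes of the G2 and M phases (red) lie almost all above 0, at every signal, while named genes lower in the high fraction (blue) include Bcl2l11 at -1.78 and Ncf1 at -0.96.

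The genes of the sort and of the model differed little between the c-Kit+ fractions. Gnl3 had a signal of 1109 in the middle fraction and 1299 in the high fraction, and of 183 (low) and 584 (middle) in the c-Kit- fractions. It was thus highest in the high fraction, but only 1.17-fold above the middle fraction (log2 ratio 0.23), and a single probe set measured it. Kit had signals of 690 in the middle fraction and 479 in the high fraction, against 26.4 in c-Kit- middle and a level below the floor in c-Kit- low. Its mRNA was 1.44-fold lower in the high fraction, with log2 ratios of -0.53 and -0.26 in its 2 probe sets. Hoxa9, the homeobox gene of the model, had signals of 673 in the middle fraction and 510 in the high fraction, a 1.32-fold lower level, and Meis1 was below the floor on all 4 arrays. It is not stated whether these probe sets read the introduced copies.

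The reporter carries a region of the Gnl3 promoter that the labels do not define. The 300 bases around the annotated Gnl3 start, 250 before it and 50 after it, are shown because they belong to the gene whose promoter the sort reads (RefSeq, GRCm38.p6, chr14:31019082-31019381, minus strand). The window was searched on both strands for the CCAAT box (CCAAT), for the cell cycle genes homology region or CHR (TTTGAA or TTCGAA) and for the E-box CACGTG, and it holds none of them, so no letter is in capitals.
Gnl3: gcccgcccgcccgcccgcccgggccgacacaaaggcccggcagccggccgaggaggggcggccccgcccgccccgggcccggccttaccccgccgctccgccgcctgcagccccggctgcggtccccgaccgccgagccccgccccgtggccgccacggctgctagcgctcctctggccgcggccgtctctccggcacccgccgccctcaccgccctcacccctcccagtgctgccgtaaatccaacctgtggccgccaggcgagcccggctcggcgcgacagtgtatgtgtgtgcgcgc

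Among the lists, that of G2 and M phase genes stood furthest above 0. Of 77 genes listed, 76 are on the array and 75 were compared, and 47 of these (62.7%) were at least 1.5-fold higher in the high fraction, against 6.25% of all genes. None was at least 1.5-fold lower. The ratio lay above 0 in 74 of 75, the exception being Ube2s at -0.01, and the median log2 ratio was 0.67 (quartiles 0.48 and 0.80). In 72 of the 75 genes the high fraction was the highest of the 4 arrays, against 34.6% of all genes compared. That trait was not particular to this list. It held for 70 of 96 ribosome biogenesis genes and 58 of 74 genes of mitochondrial ribosomes and translation. It also held for 23 of 31 genes of folate, purine and pyrimidine synthesis, but for 0 of 20 monocyte and macrophage genes. The size was moderate, and 7 of the 75 were past 2-fold.

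Of the cyclins, CDK1 and its activators, 3 of 7 were at least 1.5-fold higher. Cdk1, the kinase that drives entry into mitosis, had signals of 109, 817, 716 and 1478 in the order of the sort (c-Kit- low, c-Kit- middle, middle, high), a 2.06-fold difference between the c-Kit+ fractions. Its level was similar in both middle fractions and highest in the high fraction. Cdc25c, the phosphatase that activates CDK1, had signals of 23.4, 205, 137 and 307 in the same order, 2.24-fold higher, and both of its probe sets gave nearly the same log2 ratio (1.17 and 1.21). The cyclin gene Ccna2 was 1.53-fold and Ccnb2 1.37-fold higher, and Cks1b, a small CDK subunit, 1.06-fold.

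Of the mitotic kinases, 6 of 8 were at least 1.5-fold higher. Nek2, a kinase of centrosome separation, had signals of 65.1, 316, 345 and 683 and was 1.98-fold higher, with log2 ratios of 0.90 to 1.21 in 3 probe sets. The checkpoint kinase Bub1 was 1.85-fold higher, Ttk, which monitors spindle attachment, 1.71-fold, Aurkb, the kinase of the chromosomal passenger complex, 1.70-fold, Aurka, a spindle pole kinase, 1.62-fold and Plk1, a kinase used throughout mitosis, 1.52-fold. Melk (1.32-fold) and Haspin (1.47-fold), a histone kinase, were below that size. In the checkpoint group, Sgo1, a protector of cohesion at the centromere, was 1.77-fold higher in one probe set and stood at a log2 ratio of 0.92 in the other. Bub3, a checkpoint protein with a much smaller difference (1.15-fold), had probe sets on either side of 0, from -0.91 to 0.37.

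Kinesins and spindle genes were the groups with the most members past the 1.5-fold size. Of 11 kinesins compared, 10 were at least 1.5-fold higher, and the other, Kif14, was at the floor in the middle fraction and at least 1.44-fold higher. Kifc1, a motor that bundles spindle poles, was 2.17-fold higher, Kif20b 1.84-fold and Kif11, which pushes the spindle poles apart, 1.63-fold. All 3 probe sets of Kif23, a motor of the spindle midzone, were higher, from 0.67 to 1.42, as were those of Kif2c, from 0.69 to 1.01. Of 10 spindle genes 9 passed the size. Hmmr, a microtubule-binding protein of the spindle, had signals of 67.8, 439, 279 and 565, and was 2.03-fold higher, with log2 ratios of 0.77 to 1.02 in 4 probe sets. Troap was 3.14-fold higher, but its signal of 17.1 in the middle fraction was close to the floor, and its other probe set gave 0.21. Tpx2 (1.59-fold) and Aspm (1.56-fold) each had a dimmer probe set below 0, at -0.57 and -0.35.

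At the kinetochore and centromere, 8 of 13 genes were at least 1.5-fold higher. Ndc80, which binds the microtubule at the kinetochore, had signals of 40.0, 206, 162 and 348 and was 2.15-fold higher. Its partners Nuf2 (1.65-fold), Spc25 (1.72-fold) and Spc24 (1.60-fold) were higher as well, so all 4 subunits of that complex passed the size, although a dimmer Spc25 probe set gave 0.00. Birc5, which encodes survivin, a subunit of the passenger complex, was 1.79-fold higher, and was measured by 1 probe set. Its partner Incenp was 1.31-fold higher. Cdca8, another partner, was 1.11-fold higher in its brightest probe set and 1.51-fold and 1.62-fold in the others.

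For the end of mitosis, Prc1, which bundles microtubules of the midzone, had signals of 89.1, 699, 431 and 885 and was 2.05-fold higher, with 0.78 and 1.04 in its probe sets. Anln, a scaffold of the cleavage furrow, was 1.60-fold higher, and Ect2 (1.35-fold) and Racgap1 (1.28-fold) were below the size. Of 8 genes of the anaphase-promoting complex, its substrates and sister separation, 4 passed. Ube2c, the ubiquitin-conjugating enzyme of that complex, had signals of 121, 642, 409 and 818 and was 2.00-fold higher. Cdca5, a regulator of cohesin, was 1.74-fold higher, with 0.78 and 0.80 in its probe sets, and Espl1, separase, 1.74-fold. The substrate gene Pttg1 was 1.07-fold higher, with -0.07 to 0.36 in its probe sets. Cdc20, an activator and substrate of the complex, was 1.12-fold higher in its brightest probe set, with 0.16 to 0.63 over all 3. Of 8 genes of chromosome structure 2 passed, Ncapd2 of condensin (1.72-fold) and Cdca2 (1.56-fold), while Top2a stood at 1.42-fold and Mki67, the proliferation marker Ki-67, at 1.23-fold. Foxm1, the transcription factor of the G2 and M programme, was 1.78-fold higher, with 0.22 to 0.83 over 3 probe sets.

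**Figure D2:**
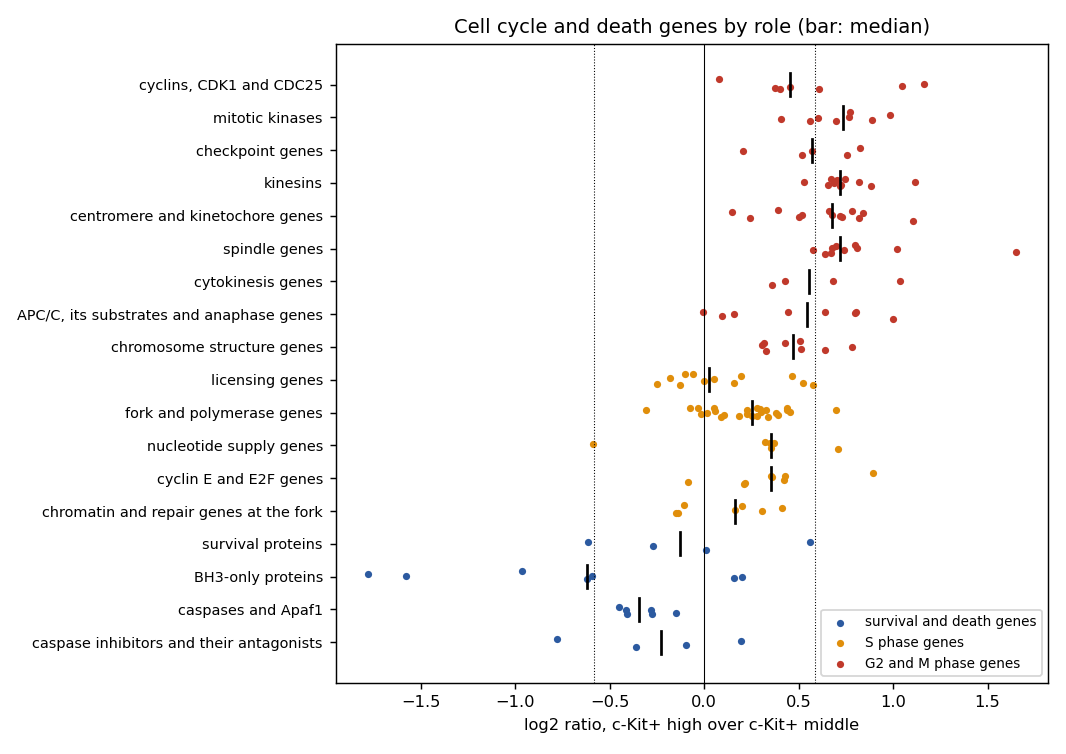
Each point is the log2 ratio of 1 gene, the high fraction over the middle fraction, grouped by role (groups of at least 4 genes), with a bar at the group's median and dotted lines at 1.5-fold. The G2 and M groups shown (red) have medians of 0.45 to 0.73, the S phase groups (orange) of 0.03 to 0.36, and the BH3-only proteins (blue) of -0.62.

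The other probe sets of the same genes give the check on these ratios. Of the 75 genes, 47 had another probe set that exceeded the floor on each c-Kit+ array, and the next brightest gave a log2 ratio above 0 in 44 of them, with a median of 0.46. Over all 4559 genes with such a probe set, it was above 0 in 50.5% with a median of 0.00. It was at least 1.5-fold higher in 17 of the 47, against 6.43% of all, and at least 1.5-fold lower in 0. All probe sets above the floor in both fractions shared 1 sign in 37 of the 47 genes, against 48.1% of all 4559. Genes with a probe set below 0 included Bub1b (-0.29), Knl1 (-0.22) and Cenpk (-0.16). Every probe set with signals above the floor in both fractions was at least 1.5-fold higher in 32 genes (0.702%), and 12 of these are on the G2 and M list. Such genes numbered 32 higher and 18 lower here, but 21 higher and 36 lower in the second table. Among the others of the 32, several have known parts in division. Ccnf, which encodes cyclin F, was 1.79-fold higher, Cenpn, a centromere protein, 1.87-fold, Spag5, a spindle protein, 1.72-fold and Lrr1 1.92-fold. Neil3, a DNA glycosylase, was 1.75-fold higher with 0.81 and 0.82 in its probe sets, and Lhfpl2 1.97-fold with 0.95 and 0.97.

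**Figure D3:**
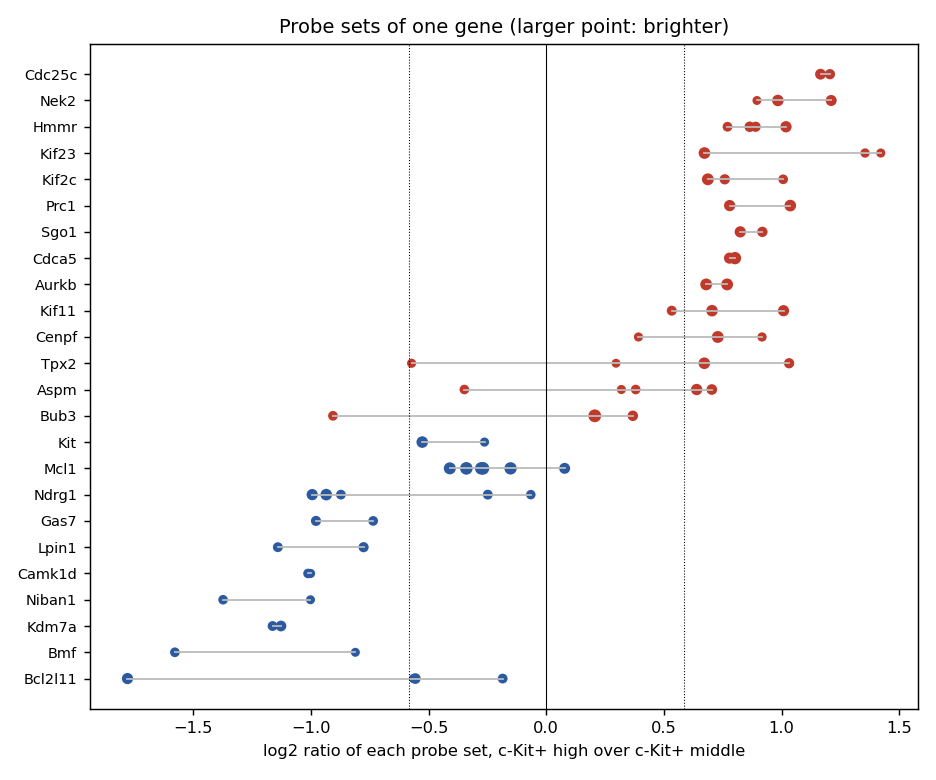
Each point is 1 probe set with signals above the floor in both fractions, with its log2 ratio of the high fraction over the middle fraction on the x axis and larger points for brighter probe sets, for 14 genes of the G2 and M list (red) and 10 other genes (blue). The probe sets of Cdc25c, Nek2, Hmmr and Prc1 all lie beyond 1.5-fold, while Tpx2, Aspm and Bub3 have probe sets on both sides of 0 and Bcl2l11 ranges from -1.78 to -0.19.

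The promoters of 5 of these genes are shown because they were among the brightest of those near or past 2-fold and because genes of this phase are known to share the CCAAT box, bound by NF-Y, and the CHR, bound by complexes with MYBL2 and FOXM1. Each window spans 250 bases before and 50 after the annotated start in RefSeq, GRCm38.p6, and the elements are in capitals as they read on the printed strand, so that ATTGG is a CCAAT box and TTCAAA a CHR on the other strand. The windows lie at chr10:69352863-69353162 (Cdk1, minus strand), chr7:80294201-80294500 (Prc1, plus), chr11:40733388-40733687 (Hmmr, minus), chr2:164769679-164769978 (Ube2c, plus) and chr1:191821223-191821522 (Nek2, plus).
Cdk1: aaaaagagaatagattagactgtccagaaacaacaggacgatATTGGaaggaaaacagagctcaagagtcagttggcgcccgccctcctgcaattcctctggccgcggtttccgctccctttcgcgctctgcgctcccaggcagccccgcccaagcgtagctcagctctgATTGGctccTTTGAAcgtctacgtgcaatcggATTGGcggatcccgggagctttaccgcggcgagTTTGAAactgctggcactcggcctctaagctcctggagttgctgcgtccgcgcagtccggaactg
Prc1: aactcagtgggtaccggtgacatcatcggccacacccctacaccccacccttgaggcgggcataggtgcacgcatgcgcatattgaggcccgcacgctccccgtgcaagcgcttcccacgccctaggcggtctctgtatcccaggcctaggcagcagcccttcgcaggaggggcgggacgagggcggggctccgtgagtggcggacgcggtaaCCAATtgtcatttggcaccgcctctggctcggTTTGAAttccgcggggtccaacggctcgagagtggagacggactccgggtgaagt
Hmmr: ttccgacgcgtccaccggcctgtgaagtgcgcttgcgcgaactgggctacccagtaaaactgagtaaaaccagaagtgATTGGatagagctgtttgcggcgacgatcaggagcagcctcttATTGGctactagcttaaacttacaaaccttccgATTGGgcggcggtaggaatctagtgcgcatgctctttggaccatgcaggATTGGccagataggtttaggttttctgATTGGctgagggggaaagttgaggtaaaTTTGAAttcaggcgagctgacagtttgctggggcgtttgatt
Ube2c: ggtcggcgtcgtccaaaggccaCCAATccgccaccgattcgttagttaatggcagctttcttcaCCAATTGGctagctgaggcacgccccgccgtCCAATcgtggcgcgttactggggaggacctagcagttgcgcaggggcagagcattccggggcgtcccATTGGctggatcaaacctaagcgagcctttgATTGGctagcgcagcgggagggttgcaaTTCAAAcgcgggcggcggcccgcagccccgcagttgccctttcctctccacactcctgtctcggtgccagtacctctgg
Nek2: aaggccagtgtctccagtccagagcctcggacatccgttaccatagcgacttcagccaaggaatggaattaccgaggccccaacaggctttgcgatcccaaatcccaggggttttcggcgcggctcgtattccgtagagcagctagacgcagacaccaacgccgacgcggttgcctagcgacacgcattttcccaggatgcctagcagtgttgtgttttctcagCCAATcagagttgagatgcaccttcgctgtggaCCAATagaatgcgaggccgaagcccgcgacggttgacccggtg

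The Cdk1 window holds 3 CCAAT boxes and 2 CHR, that of Prc1 1 of each, that of Hmmr 5 and 1 and that of Ube2c 6 and 1, where 2 of the 6 overlap. That of Nek2 holds 2 CCAAT boxes and no CHR of these letters. A promoter was found for 38 of the 47 genes at least 1.5-fold higher, and 28 of them (73.7%) held a CHR and 29 (76.3%) a CCAAT box. The shares were 69.2% and 69.2% in the 26 genes of the same list under 1.5-fold. In 48 S phase genes they were 18.8% and 58.3%, and in 9040 genes compared 16.6% and 43.1%. Both elements in 1 window occurred in 60.5% of the first set, 57.7% of the next, 14.6% of the S phase genes and 6.78% of genes compared. In all 27025 genes of the promoter table a CHR occurred in 21.7%, a CCAAT box in 41.1% and both in 8.61%. Both elements were thus more frequent on the list than among the genes compared, with shares that differed little between members past and under 1.5-fold.

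Genes of S phase differed less. Of 58 compared, 3 were at least 1.5-fold higher and 1 lower, and the median log2 ratio was 0.23 with 43 genes above 0. The high fraction was the highest of the 4 arrays in 41 of the 58, against 34.6% of all genes, and the lowest in 0. Those higher were Mybl2, a transcription factor that acts with the CHR complexes (1.86-fold), Tk1, thymidine kinase (1.64-fold), and Pold2, a subunit of DNA polymerase delta (1.62-fold). The uracil glycosylase gene Ung was 1.5-fold lower. Licensing genes, which load the helicase onto origins before replication, were level between the fractions, with 0 of 12 past the size in either direction and a median of 0.03. Mcm2, a helicase subunit, had signals of 318, 837, 1141 and 961 and Mcm4 of 436, 1213, 1836 and 1621, so both peaked in the middle fraction. Other licensing genes did not, such as Mcm7, with signals of 1904, 3965, 4341 and 4966. Gmnn, geminin, which blocks licensing after S phase has begun, stood at 1.49-fold higher. Fork and polymerase genes had a median of 0.25, genes of nucleotide supply of 0.35 and cyclin E and E2F genes of 0.36. Pcna, the sliding clamp, was 1.06-fold and Rrm2, a subunit of ribonucleotide reductase, 1.27-fold higher (0.35 to 0.80 in 3 probe sets). Of 9 histone genes compared 2 were higher, H1f4 (2.07-fold) and H2ax (1.51-fold).

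In the other steps of the sort the same 2 lists moved differently. From c-Kit- low to c-Kit- middle, a step that shares no array with this comparison, 71 of 75 G2 and M genes were at least 1.5-fold higher (16.6% of all genes), with a median of 2.17, as were 50 of 58 S phase genes, with a median of 1.46. From c-Kit- middle to the middle fraction, which shares the middle array, 2 G2 and M genes were higher (13% of all genes) and 5 lower (13.1%), with a median of -0.063, and 14 S phase genes higher and 1 lower, with a median of 0.36. Both NS-GFP steps thus had higher G2 and M levels at the upper gate. Over 9147 genes above the floor on all 4 arrays, 188 were at least 1.5-fold higher in both NS-GFP steps, which is 42.9% of the 438 genes higher in the c-Kit+ step and 11.5% of the 1628 higher in the c-Kit- step. Of all 9147 genes, 17.8% were higher in the c-Kit- step. Another 136 were lower in both, 37.4% of the 364 lower in the c-Kit+ step and 10.97% of the 1240 in the c-Kit- step, where 13.6% of all genes were lower. Of the 438 genes higher in the c-Kit+ step, 43 (9.82%) were lower in the c-Kit- step, against 13.6% of all genes. Of the 364 genes lower in the c-Kit+ step, 22 (6.04%) were higher in the c-Kit- step, against 17.8% of all genes.

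**Figure D4:**
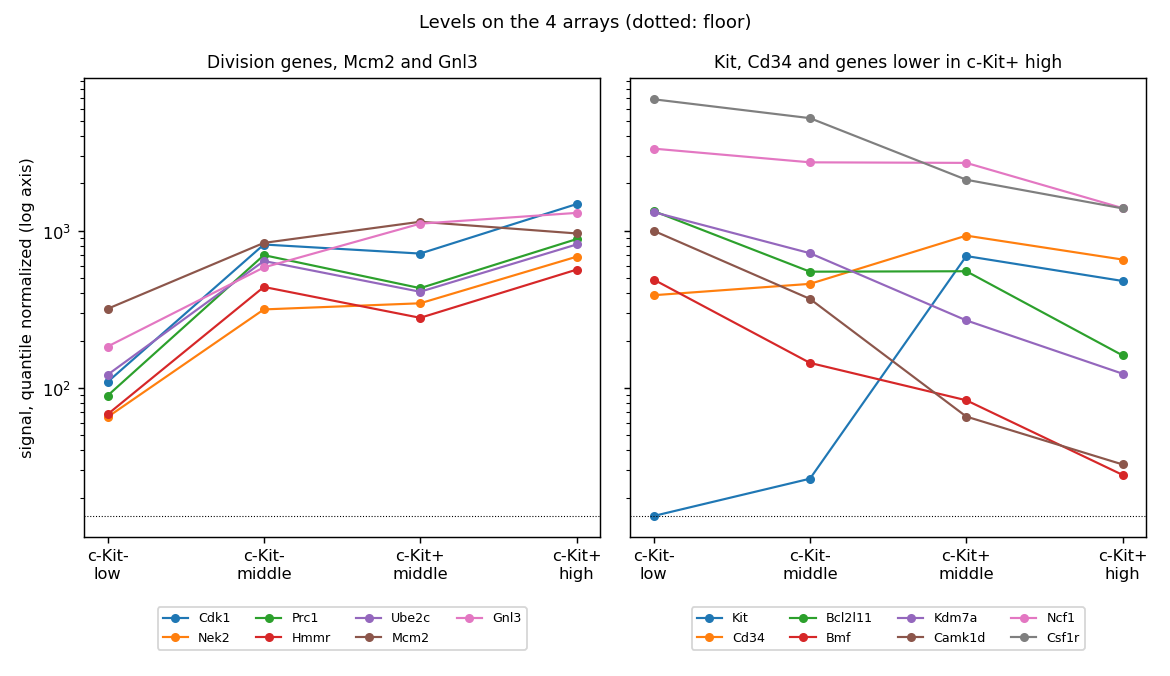
Signals on the 4 arrays (log axis, dotted line at the floor of 15.3, to which lower signals are set), 1 array per point, from c-Kit- low to the high fraction. Cdk1, Nek2, Prc1, Hmmr and Ube2c are highest in the high fraction while Mcm2 and Kit peak in the middle fraction, and Bmf, Kdm7a, Camk1d and Csf1r are lower at each step.

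Growth genes, with which nucleostemin is usually grouped, were near level. Of 96 ribosome biogenesis genes 3 were at least 1.5-fold higher and 0 lower, with a median log2 ratio of 0.10 and 73 above 0. The 3 were Noc3l (1.63-fold, with 0.70 and 0.76 in its probe sets), Sdad1 (1.67-fold) and Utp23 (1.68-fold), and Utp23 stood at -0.14 when probe sets that can read several transcripts were left out. None of 16 genes of the nucleostemin family and its nucleolar partners passed the size (median 0.08), with Gnl3l, the paralogue of Gnl3, at 1.18-fold, the pseudouridine synthase gene Dkc1 at 1.22-fold and Mtg1, a mitochondrial GTPase, at 1.37-fold. In the step from c-Kit- low to c-Kit- middle 39 of the 96 were at least 1.5-fold higher (40.6%), against 16.6% of all genes, and in the step from c-Kit- middle to the middle fraction 41 (42.7%), against 13%. Of 45 cytosolic ribosomal protein genes none passed (median 0.02). Myc had signals of 154, 409, 960 and 866 and was 1.11-fold lower in the high fraction, and of 34 genes of the Myc network and Myc-linked growth 1 was higher and 1 lower. These were Mxd3 (1.94-fold higher) and Mxd4 (1.61-fold lower), both MAX partners that oppose MYC.

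Genes of mitochondria were shifted up by a small amount. Of 74 genes of mitochondrial ribosomes and translation, 69 were above 0, against 53.2% of all genes, with a median of 0.24. At least 1.5-fold higher were 4 (5.41%), a share below the 6.25% of all genes. They were Mrpl52 (1.76-fold), Mrpl47 (1.64-fold), Mrpl34 (1.55-fold, 0.64 and 0.75 in its probe sets) and Mrpl36 (1.53-fold). Of 72 oxidative phosphorylation genes 63 were above 0 with a median of 0.17, and 1 (1.39%) was at least 1.5-fold higher. It was Uqcr10, a small subunit of complex III, 1.55-fold higher, with log2 ratios of 0.64 to 0.82 in its 3 probe sets. Genes of folate, purine and pyrimidine synthesis had 0 of 31 past the size and a median of 0.19, led by Shmt2 (1.42-fold) and Shmt1 (1.38-fold), which feed 1-carbon units into nucleotides. In all genes compared the median log2 ratio fell from 0.08 in the 25% of genes with the shortest span to -0.03 in the 25% with the longest, and mitochondrial genes are mostly short. The part of gene length in these small shifts was not tested.

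Chaperone genes had 0 of 37 past the size (median 0.01). Of 44 genes of the unfolded protein and ATF4 responses 1 was higher, Asns, asparagine synthetase (1.52-fold, 0.60 and 0.69 in its probe sets), and 3 were lower, Ddit4 (1.74-fold), Atf5 (1.56-fold) and Hyou1 (1.55-fold, with the other direction in its other probe sets). Cholesterol synthesis and uptake genes were split, with a median of 0.02. Mvk, mevalonate kinase, had signals of 59.6, 75.4, 22.4 and 63.6 and was 2.84-fold higher, with 0.53 in its other probe set. Abca1, a cholesterol exporter (2.30-fold), and Cyp51 (1.98-fold) were lower. Of 36 glycolysis and hypoxia genes 4 were lower, of which Ndrg1 had the brightest signals (1.91-fold). Of 17 telomere genes 1 passed, Pot1b, at least 2.21-fold lower, and of 28 ABC transporter and antioxidant genes the stem cell exporter Abcg2 was 1.94-fold higher while Abca1 and Abca2 (1.74-fold) were lower. Of 44 chromatin and leukaemia dependency genes 2 were higher, Hmga2 (2.24-fold) and the Polycomb gene Cbx2 (1.54-fold). Of 8 Hoxa genes and their cofactors compared none passed.

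Genes of cell death went in the other direction. Of 23 survival and death genes compared 7 were at least 1.5-fold lower in the high fraction (30.4%), against 4.72% of all genes, and 0 were higher, with a median of -0.28. Of 7 BH3-only genes 5 were lower, with a median of -0.62. Bcl2l11, which encodes BIM, had signals of 1335, 549, 552 and 161 and was 3.43-fold lower, the lowest ratio of any named gene above the floor on both arrays. Its 3 other probe sets above the floor were lower by less, with log2 ratios of -0.56, -0.56 and -0.19, so the direction was shared and the size was not. Bmf had signals of 489, 144, 83.3 and 27.9, lower at every step of the sort, and was 2.99-fold lower between the c-Kit+ fractions, with -1.58 and -0.81 in its probe sets. Bbc3, which encodes PUMA, was 1.95-fold lower, with dim signals of 41.7 and 21.4 in the c-Kit+ fractions. Pmaip1, which encodes NOXA, was 1.54-fold lower, and each of these 2 genes was measured by 1 probe set. Bad was 1.51-fold lower, with -0.59 and -0.15 in its probe sets. Bid was 1.11-fold higher. Bik was close to the floor, with 12.7 in the middle fraction and 17.6 in the high fraction, and its other probe set above the floor went the other way (-0.81), so no direction is given for it.

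Proteins that hold death back were not higher as a group. Bcl2 was 1.53-fold lower, with 5 probe sets from -0.62 to 0.18, and Birc3, an inhibitor of apoptosis induced by NF-kappaB, 1.72-fold lower, with -0.78 and -0.57. Mcl1 was 1.21-fold lower and Bcl2l1, which encodes BCL-XL, 1.48-fold higher. In their brightest probe sets, all 6 caspase and Apaf1 genes compared were below 0, with a median of -0.34 and none past 1.5-fold. Of 19 p53 target genes 4 were lower (21.1%, against 4.72% of all genes). These were Trp53inp1 (2.40-fold), Ddit4, and Bbc3 and Pmaip1, which are also on the survival and death list. Cdkn1a, the p53-induced CDK inhibitor p21, was 1.14-fold higher.

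Cell cycle inhibitor and quiescence genes had 4 of 29 lower (13.8%, against 4.72% of all genes) and a median of -0.22. Besides Bcl2l11 and Bmf, which are on this list as FOXO targets, they were Ndrg1 (1.91-fold) and the mitophagy kinase gene Pink1 (1.65-fold). Cdkn1c, which encodes the CDK inhibitor p57, was the exception, 2.00-fold higher from a signal of 31.0 to 62.1. Of 30 immediate early and stress genes 2 were lower (6.67%, against 4.72% of all genes) and 1 higher (3.33%, against 6.25%). Gadd45g, a growth arrest gene, was 3.03-fold lower, to a signal of 18.7 near the floor, and Dusp6, the phosphatase that ERK signalling induces, 1.91-fold.

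Receptors and feedback genes of cytokine signalling had 6 of 40 lower (15%, against 4.72% of all genes) and 1 higher. Their ratios lay below 0 in 32 genes, with a median of -0.18. Lifr, the receptor for leukaemia inhibitory factor, had signals of 2962, 1230, 42.1 and 12.9 and was at least 2.76-fold lower. Socs2, a STAT5 feedback gene, was 2.41-fold lower, Jak3, a kinase of cytokine receptors, 2.38-fold, Csf1r, the receptor for the macrophage growth factor, 1.52-fold and Il1r1 1.52-fold. Spry1, an inhibitor of ERK signalling, was 1.70-fold higher. Of 24 adhesion and homing genes 3 were lower (12.5%, against 4.72% of all genes) and 0 higher, with 20 below 0. These were the integrin genes Itgb3 (2.17-fold) and Itgal (1.78-fold), and Pecam1 (1.82-fold).

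Stem and progenitor genes were not higher in the high fraction. Of 21 compared, 1 was at least 1.5-fold higher and 2 lower, with 15 below 0 and a median of -0.16. Hmga2, a chromatin protein of fetal stem cells, had signals of 28.0, 64.3, 33.8 and 75.5 and was 2.24-fold higher. Cd27, a receptor of the TNF family, was 2.17-fold lower and Ikzf2 1.74-fold, both dim. Cd34, an antigen of immature cells, had signals of 389, 459, 931 and 655.5 and was 1.42-fold lower, so like Kit it peaked in the middle fraction, and Flt3, a receptor of progenitors, was 1.36-fold lower. Of 18 surface antigens linked to leukaemia stem cells 1 passed, Cd27, and Cd47, which blocks uptake by macrophages, was 1.34-fold lower. Of 18 myeloid transcription factors 1 passed, Id1 (2.17-fold higher), while Cebpa, which drives granulocyte formation, was 1.47-fold lower.

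Genes of immature and of mature granulocytes were about level, and those of monocytes and of phagocytosis were lower at the median. Of 15 primary granule genes 13 were above 0, with a median of 0.15 and 1 past 1.5-fold, Nkg7 (1.60-fold). Mpo, myeloperoxidase, had signals of 193, 763, 7087 and 7309 and Elane, neutrophil elastase, of 128, 654, 3160 and 3187. Both were higher at each step up to the middle fraction and differed by no more than 1.03-fold between the c-Kit+ fractions. Of 20 genes of secondary and tertiary granules 1 was higher and 2 lower, with a median of -0.01. The median of 20 monocyte and macrophage genes was -0.29, with 16 below 0. Of these 20, 3 were lower (15%, against 4.72% of all genes) and 0 higher. They were Tlr7 (at least 1.70-fold), Gpnmb (1.55-fold) and Csf1r, whose signals of 6871, 5210, 2112 and 1388 were lower at each step. Of 15 S100 and annexin genes 1 passed, the scaffold gene Ahnak, with signals of 2730, 1481, 137 and 43.2 (3.18-fold lower).

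Of 23 genes for Fc receptors, phagocytosis and the NADPH oxidase, 5 were lower (21.7%, against 4.72% of all genes) and 0 higher (median -0.17). Ncf1, the organizer subunit of the oxidase, had signals of 3333, 2727, 2704 and 1393 and was 1.94-fold lower, with 3 probe sets from -0.96 to -0.30. Its brightest probe set changed little over the first 3 fractions, whereas the others were already lower there, from 242 to 104 and from 122 to 67.7. Tlr13, a sensor of bacterial RNA, was 2.99-fold lower, the inhibitory receptor gene Pirb 1.86-fold, Tlr4 1.74-fold and Cybb, the catalytic oxidase subunit, 1.59-fold. Of 18 genes linked to inflammation and NF-kappaB 4 were lower (22.2%, against 4.72% of all genes) and 1 was higher. Those lower were Nfkbiz (2.13-fold), Tnf (at least 1.74-fold), Birc3 and Ccl4 (1.60-fold). Nfkb2 was higher (1.90-fold, from a dim 18.4). Of 33 interferon-stimulated genes 3 were lower and 0 higher, with a median of 0.00, and of 36 lysosome genes 1 was lower, the autophagy receptor gene Sqstm1 (2.06-fold).

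The summed signal of the 27 monocyte and macrophage genes on the array was 17836 in the middle fraction and 14953 in the high fraction. The part of mature cells in the lower phagocyte genes was not tested.

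**Figure D5:**
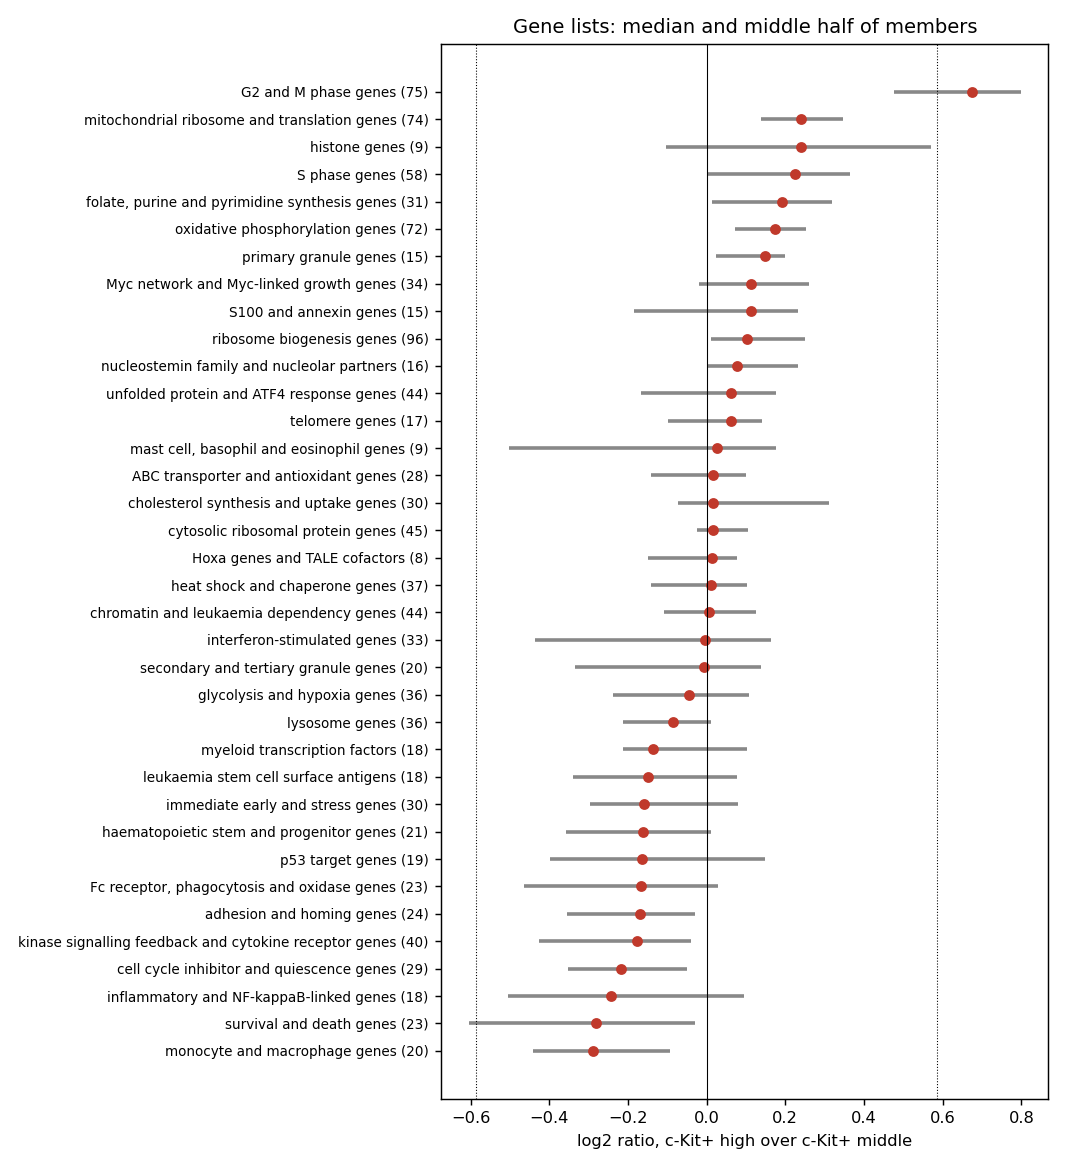
Median (point) and quartiles (line) of the log2 ratio of the high fraction over the middle fraction for each gene list with at least 8 genes compared, the number in brackets, with dotted lines at 1.5-fold. The G2 and M list lies apart at 0.67, the next lists are at 0.24, and survival and death genes (-0.28) and monocyte and macrophage genes (-0.29) are the lowest.

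Markers of other blood lineages were mostly below the floor. Fewer than 6 genes could be compared in each of the lists for B cells, T and NK cells, class II and dendritic cells, erythroid cells, megakaryocytes and stroma, and Hba-a1, Gp9, Ms4a1, Cd3d, Cd74 and Col1a1 were below the floor on both arrays. Igha, the constant region of IgA, had signals of 4915, 609, 11.8 and 65.4, at least 4.28-fold higher in the high fraction and far below its level in the c-Kit- fractions. H2-Aa, a class II gene, was 2.71-fold higher in one probe set and stood at -1.07 in the other. Of 4 T and NK cell genes compared, Cd8a (at least 1.95-fold) and Nkg7 were higher. The summed signals of the 16 genes of that list on the array were 105 in the middle fraction and 155 in the high fraction. The summed signals of the 15 B cell genes on the array were 2229 and 1788. No erythroid gene passed, and Treml1 (at least 1.60-fold higher) and Itgb3 did among 5 megakaryocyte genes. Pecam1 did among 5 stroma genes. Of the 17 mast cell, basophil and eosinophil genes on the array 9 were compared, and the summed signals of all 17 were 1448 and 1201. Cpa3, mast cell carboxypeptidase, had signals of 173, 39.6, 228 and 68.8 and was 3.31-fold lower, Ms4a2, a chain of the IgE receptor, was 2.24-fold lower, and Prg3, an eosinophil granule gene, at least 2.42-fold higher. Hdc, histidine decarboxylase, was 1.47-fold higher and Mcpt8, a basophil protease, 1.42-fold lower, so the list did not move one way.

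The largest single ratios were mostly in dim genes measured by 1 probe set. With signals above the floor on each c-Kit+ array, the highest was that of Rhbdd3 (4.56-fold, signals of 30.9 and 141), whose 3 probe sets ranged from 0.38 to 2.19. Next came Troap, the receptor gene Fgfrl1 (3.02-fold), Casp14 (2.98-fold) and Thoc2l (2.86-fold), all with signals under 25 in the middle fraction. Med18, a subunit of Mediator, was brighter, with signals of 110 and 315 (2.86-fold). Ddias, an inhibitor of apoptosis after DNA damage, had signals of 24.2, 71.4, 64.0 and 153 and was 2.39-fold higher, with both probe sets above 1.5-fold. Among the lowest, Rap1gap2 was 2.98-fold lower, with signals of 657, 321, 122 and 40.9, and the chaperone gene Dnajb14 2.80-fold, with -1.49 and -0.71 in its probe sets. Of genes at the floor in the high fraction, Prkch, a protein kinase C gene, was at least 3.26-fold lower, and Rarg, a retinoic acid receptor gene, at least 3.04-fold.

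Every probe set with signals above the floor in both fractions was at least 1.5-fold lower in 18 genes (0.395%, and 36 genes in the second table). None of the 18 is on the G2 and M list, which says little, since only 47 of the 4559 genes so checked are on it. Kdm7a, a histone demethylase gene, had signals of 1314, 720, 269 and 123 and was 2.18-fold lower, with -1.16 and -1.13. Niban1 had signals of 1802, 751, 68.8 and 26.6 (2.59-fold lower) and Camk1d, a calmodulin-dependent kinase gene, of 1000, 368, 65.6 and 32.5 (2.02-fold lower). All 3 were lower at each step of the sort, as were Olfm1 (1.70-fold), Gas7 (1.97-fold) and Lpin1, a phosphatidate phosphatase gene (1.71-fold). Others did not follow the sort. Ppp1r8 was highest in the middle fraction, at 350 against 191 in the high fraction (1.83-fold lower), as was the chromatin gene Phf6, at 228 against 150 (1.52-fold lower).

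In the brightest 25% of genes, the 8 with the highest ratios were Cdk1, Prc1, Ube2c, Nek2, Cenpn, Bub1, Kif20b and Arpp19. The first 7 are genes of mitosis, and Arpp19 encodes an inhibitor of the phosphatase that opposes CDK1, 1.82-fold higher in its brightest probe set. Its next probe set gave a log2 ratio of 0.08 and the dimmest was lower (34.6 against 8.1, below the floor), and the gene turned to -0.079 with the mean of probe sets. The 8 with the lowest ratios were Ankrd11 (1.94-fold), Ncf1, Ndrg1, the heparanase gene Hpse (1.90-fold), the adaptor gene Crk (1.82-fold), Itgal, Msrb1 (1.77-fold) and Tsc22d1 (1.75-fold). The probe sets of Ankrd11, Crk and Tsc22d1 lay on both sides of 0. Over the whole array, the next probe set had the same sign in 41 of 47 genes (87.2%) whose brightest was past 2-fold and in 243 of 325 (74.8%) past 1.5-fold, and it was itself past 1.5-fold in 12 and 80 of these. Among genes of any ratio, these 2 probe sets shared a sign in 53.5% of the dimmest 25% of genes and 64.5% of the brightest 25%.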

How the data were processed

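RNA of each sorted fraction was extracted with TRIzol and hybridised as biotin-labelled cRNA to an Affymetrix mouse array, per the labels' protocols. The tools were MAS5, GCOS 1.2 and R 3.0.2, per the submitters' processing notes, which do not say what each was used for. One deposited table gives the intensity of 45101 probe sets on a linear scale, and how it was scaled is not stated. The other deposited table gives log2 values for 17419 probe sets, equal to the log2 of those intensities plus 1 constant per array (0.49 for c-Kit+ middle and 0.44 for c-Kit+ high), and it served as an alternative.

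The linear signals of 45037 probe sets that are not controls were quantile normalized over the 4 arrays, floored at their 50th percentile (15.3) and taken to log2 with Python 3.11.15, numpy 2.4.6 and pandas 2.3.3. Of these, 34945 have 1 gene in the platform annotation (34741 matched by gene ID to RefSeq symbols) and 932 have several, which were left out. A gene took its brightest probe set. A gene at the floor on 1 array has a lower bound on its fold, and array number limits the precision. Genes were counted at 2-fold, and list members at 1.5-fold. The counting was tested on simulated data with changes larger than most described here, put into brighter genes. That test covers neither 1.5-fold differences nor dim genes.

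The comparison, the 43 gene lists and the rules were chosen with earlier results of these data known. The genes named were those of the sort and model (Gnl3, Kit, Meis1, Hoxa9), the 12 highest and 12 lowest ratios above the floor on both arrays, the 15 in each direction by their least changed probe set, the 8 in each direction in the brightest 25%, the 5 brightest at the floor on 1 array, and from each list up to 4 members furthest towards its median and any past 1.5-fold. Predicted and clone-named genes were passed over. Not every gene picked by these rules is named in the results, for example Kif22 and Cenpf of the G2 and M list. Other members of the lists, such as Mcm2, Myc, Mpo and Mki67, were named by their role after their values were seen. Alternatives were the deposited signals, quantile normalization over both c-Kit+ arrays, the log2 table, other floors, the mean of probe sets, and leaving out probe sets with the suffixes _s_at, _x_at or _a_at, which can read several transcripts.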

Additional observations from a re-analysis of the deposited data

How the results depend on the processing

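The higher level of the G2 and M genes kept its direction under all 8 alternatives, with medians of 0.57 to 0.72 and between 36 and 53 genes at least 1.5-fold higher. Counts over all genes depended on the floor, since dim genes carry most of the differences. In the order 2-fold higher, 2-fold lower, 1.5-fold higher and 1.5-fold lower, they were 1243, 1162, 2465 and 2269 for a 25th percentile floor, 10, 12, 162 and 124 at the 75th and 2104, 2049, 3288 and 3075 with no floor. In the second table, the number 2-fold higher was 24 and the number 1.5-fold higher 281. Of the 2-fold calls 50% were higher in the main setting, 39.3% without quantile normalization and 20.9% in the second table, and of the 1.5-fold calls 57.0%, 49.3% and 35.9%. Genes with every probe set past 1.5-fold numbered 21 higher and 36 lower in the second table, 78 and 60 with the 25th percentile, 15 and 6 with the 75th, 269 and 238 with no floor, and 30 lower without quantile normalization and 10 lower without the suffixed probe sets. All probe sets had 1 sign in 48.1% of genes in the main setting, in 58.7% for a 75th percentile floor and in 37.4% with no floor.

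Medians of short lists were unstable. That of the sort and model genes was -0.062 in the second table, and that of mast cell, basophil and eosinophil genes was -0.41 there and -0.37 without the suffixed probe sets. The erythroid median was -0.37 for a 25th percentile floor and without a floor, the megakaryocyte median -1.23 in the second table, 0.28 with the 25th and -1.12 with the 75th percentile, and the T and NK cell median 0.69 in the second table and 0.68 without the suffixed probe sets. The class II median was -0.36 with the 25th percentile, and the stroma median -0.092 without a floor and -0.099 for the mean of probe sets. The B cell median was -0.0495 without a floor and turned to 0.050 with the mean of probe sets and 0.078 without the suffixed probe sets. Among the 211 genes checked, a turn of direction was counted only for those at least 1.5-fold apart in the main setting. Of these, 4 turned. Smaller ratios that changed sign were not counted. Arpp19 stood at -0.079 and Hyou1 at 0.0021 with the mean of probe sets, Hyou1 at 0.64 and Utp23 at -0.14 without the suffixed probe sets, and Nr4a2 at -1.14 in the second table. The cause of these changes was not tested. No paired analysis was possible because each group holds 1 array.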

Other observations

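The comparison showed no single chromosome apart from the rest. The median log2 ratio by chromosome ran from -0.04 to 0.06. By gene span, 7.59% of the 25% of genes with the shortest span were at least 1.5-fold higher and 3.85% lower, and in the 25% with the longest 5.27% and 6.43%. An E-box CACGTG, the site of MYC and related factors, occurred in the promoters of 19.5% of 82 ribosome biogenesis genes and 11.9% of the genes compared.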
